A study of Mus musculus with 2 samples.

Results

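The genes described here carry and restrain transforming growth factor beta (TGF-β) signals in germinal center B cells: the ligand gene Tgfb1, the receptor genes Tgfbr1 and Tgfbr2, the signal transducer genes Smad2, Smad3 and Smad4, and the inhibitor genes Smad7, Ski and Skil. They are 9 of the 30905 genes listed in the deposited matrices and were chosen by symbol. Each symbol matched 1 row. Droplet single-cell RNA sequencing of transcript 3′ ends was run on germinal center B cells sorted from spleens of C57BL/6J mice, an inbred wild-type strain, aged 8 weeks and immunized with sheep red blood cells (SRBC). All cells belong to this 1 group, and the 2 libraries, called library 1 and library 2, are its replicates. The labels name neither the sorting markers nor the animals behind each library. The p-values therefore cover only how far class differences vary between these libraries, once a shift shared by all classes is removed. That variation may be technical.

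TGF-β is secreted in a latent form and, once activated, binds the receptor kinase encoded by Tgfbr2, which recruits and phosphorylates the one encoded by Tgfbr1. The active complex phosphorylates SMAD2 and SMAD3, which join SMAD4 and regulate genes in the nucleus. SMAD7 blocks the receptors, and SKI and SKIL (also called SnoN) repress SMAD target genes. In B cells the pathway is known for restraining proliferation and for directing class switching towards IgA and, in the mouse, IgG2b.

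The deposited libraries held 75121538 UMIs (unique molecular identifiers, tags of single captured RNA molecules) over 8765 barcodes and 61874342 UMIs over 7868 barcodes. Barcodes entered the comparisons where they had 500 or more genes and 1000 or more UMIs, no more than 20% of these mitochondrial, and could be thinned to 3400 UMIs, 4677 in library 1 and 3135 in library 2, at median depths of 8900 and 9240 UMIs. Of these barcodes 6 sequences were found in both libraries. All 11 germinal center markers were found, each in 51.8% to 99.8% of cells. Bcl6, the repressor that defines the germinal center state, had a UMI in 64.0% and 62.3% of cells. The 8 T cell markers together had 95 UMIs in library 1 and 114 UMIs in library 2, most of them of Trac, which encodes the T cell receptor alpha constant region, with 55 and 66 UMIs. At least 1 UMI of 30 strict lineage genes, chosen as markers outside the B lineage, was found in 27.0% and 26.5% of cells. Most of this share was Pecam1, which alone was read in 25.3% and 24.2% of cells.

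The 250 bases before the start sites of the receptor pair, whose zone and isotype differences run in opposite directions, and of the ligand they bind are shown. Skil, which also differs below, is not shown. The sequences come from RefSeq on GRCm38.p6 and are written 5′ to 3′ on the gene's strand. Capitals mark the 5 letters CAGAC, or GTCTG where it lies on the other strand, a sequence bound by SMAD3 and SMAD4 proteins.
Tgfbr1 (chr4:47352972-47353221, plus strand): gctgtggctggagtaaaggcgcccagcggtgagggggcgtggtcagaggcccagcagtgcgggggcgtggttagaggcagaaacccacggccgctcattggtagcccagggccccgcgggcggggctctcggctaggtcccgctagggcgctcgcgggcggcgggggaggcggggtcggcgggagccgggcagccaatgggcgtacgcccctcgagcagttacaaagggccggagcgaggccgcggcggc
Tgfbr2 (chr9:116175364-116175613, minus strand): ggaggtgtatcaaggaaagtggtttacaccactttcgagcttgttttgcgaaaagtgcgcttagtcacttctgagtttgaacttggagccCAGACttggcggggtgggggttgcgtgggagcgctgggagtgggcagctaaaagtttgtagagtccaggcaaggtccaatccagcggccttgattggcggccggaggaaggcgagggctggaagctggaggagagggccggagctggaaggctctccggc
Tgfb1 (chr7:25686752-25687001, plus strand): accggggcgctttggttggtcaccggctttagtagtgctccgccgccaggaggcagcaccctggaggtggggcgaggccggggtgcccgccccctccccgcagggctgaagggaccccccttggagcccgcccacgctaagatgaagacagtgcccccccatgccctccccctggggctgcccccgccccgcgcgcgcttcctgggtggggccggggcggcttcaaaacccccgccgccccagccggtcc
The letters occurred 1 time before Tgfbr2 and 0 times before the Tgfbr1 and Tgfb1 starts, against 42.2% of 32851 mouse promoter windows of the same length. A second RefSeq start of Tgfbr1, 32994 bases downstream, had 1 match. The palindrome of GTCT and its reverse complement was in none of these windows and in 0.167% of all of them. The Tgfbr1 and Tgfb1 windows were 74.8% and 75.2% G or C, and the Tgfbr2 window 58.4%.

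Levels are UMIs of a gene per 1000000 UMIs of the summed cells (CPM), and an interval in parentheses is the exact Poisson interval at 95%, which covers counting error only. A 3′ UMI is counted once per molecule whatever the transcript's length, so levels were not divided by length, and capture may differ between genes. Tgfb1 (ENSMUSG00000002603, chromosome 7, 25687002 to 25705077), the ligand, stood at 136 CPM in library 1 and at 136 CPM in library 2 (7851 and 5498 UMIs). Tgfbr1 (ENSMUSG00000007613, chromosome 4, 47353222 to 47414931), the type I receptor kinase, stood at 66.5 CPM (64.4 to 68.6) in library 1 and at 51.5 CPM (49.3 to 53.8) in library 2. Tgfbr2 (ENSMUSG00000032440, chromosome 9, 116084293 to 116175360), the type II receptor kinase, stood at 33.3 and 34.4 CPM. The Tgfbr1 intervals did not overlap between the libraries, and Tgfbr1 was higher in library 1 in each of the 4 zone classes, 3 isotype classes and 3 cell cycle states. The share of all genes with such a gap between the libraries was not computed.

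Among the transducers, Smad2 (ENSMUSG00000024563, chromosome 18) stood at 32.9 and 31.6 CPM, and Smad4 (ENSMUSG00000024515, chromosome 18), the partner shared with bone morphogenetic protein signals, at 30.8 and 30.7 CPM. Smad3 (ENSMUSG00000032402, chromosome 9, 63646767 to 63757994) gave 131 and 96 UMIs, or 2.27 and 2.38 CPM. Among the inhibitors, Smad7 (ENSMUSG00000025880, chromosome 18) stood at 61.6 and 57.6 CPM and Skil (ENSMUSG00000027660, chromosome 3, 31095058 to 31122577) at 34.7 and 32.5 CPM. Ski (ENSMUSG00000029050, chromosome 4, 155154075 to 155222592) gave 62 and 44 UMIs, or 1.07 and 1.09 CPM. Smad3 and Ski therefore rest on few molecules, and differences in them are known least precisely.

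Tgfbr1 was lower in light zone gate cells than in dark zone gate cells, whereas Tgfbr2 and Skil were higher. The light zone is where germinal center B cells take up antigen and meet helper T cells, and the dark zone is where they divide and mutate their antibody genes. Zones were read from RNA of the genes used to gate them by flow cytometry. The light zone gate held cells with Cd83 or Cd86 but not Cxcr4 among their thinned UMIs (1665 and 1196 cells), the dark zone gate cells with Cxcr4 and neither of the others (741 and 503 cells). Cells with both signals numbered 584 and 371 and cells with neither 1687 and 1065. As a check, 9 of 9 other light zone genes were called higher in the light zone gate and 7 of 7 dark zone genes lower.

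Tgfbr1 had 50.9 and 38.6 CPM in light zone gate cells of libraries 1 and 2, against 94.1 and 73.7 CPM in dark zone gate cells. Both light zone gate values lay below both dark zone gate values. The log2 fold change was −0.91 ± 0.07 (SE; edgeR adjusted p = 9.43e-14), with −0.91 in library 1 and −0.94 in library 2. Cells in both gates had 78.0 and 53.5 CPM and cells in neither 66.2 and 54.5 CPM, so these classes lay between the gates in each library and did not keep one order between themselves. At equal depth, a Tgfbr1 UMI was found in 17.4% and 14.4% of light zone gate cells (37.6% and 32.4% unthinned), against 30.1% and 24.7% of dark zone gate cells (58.3% and 50.7% unthinned). No cell class here is known to lack these genes, so the share that free RNA gives could not be measured, and median depths were 8184 and 8953.5 UMIs in light zone gate cells, against 9203 and 8788 UMIs in dark zone gate cells.

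Tgfbr2 had 38.9 and 41.7 CPM in light zone gate cells, against 32.1 and 28.7 CPM in dark zone gate cells. The values of the gates did not overlap, and the log2 fold change was 0.39 ± 0.09 (edgeR adjusted p = 0.000521). At equal depth 14.5% and 17.5% of light zone gate cells had a Tgfbr2 UMI, against 13.2% and 12.9% of dark zone gate cells, so the shares lay closer together than the summed levels. UMIs of both receptor genes were found in 1.80% and 2.09% of thinned light zone gate cells, against 3.78% and 2.78% of thinned dark zone gate cells. Tgfb1 had 150 and 147 CPM in light zone gate cells, against 124 and 133 CPM in dark zone gate cells, a difference that was small but of 1 sign in both libraries (log2 fold change 0.21 ± 0.06, edgeR adjusted p = 0.0061).

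**Figure D1:**
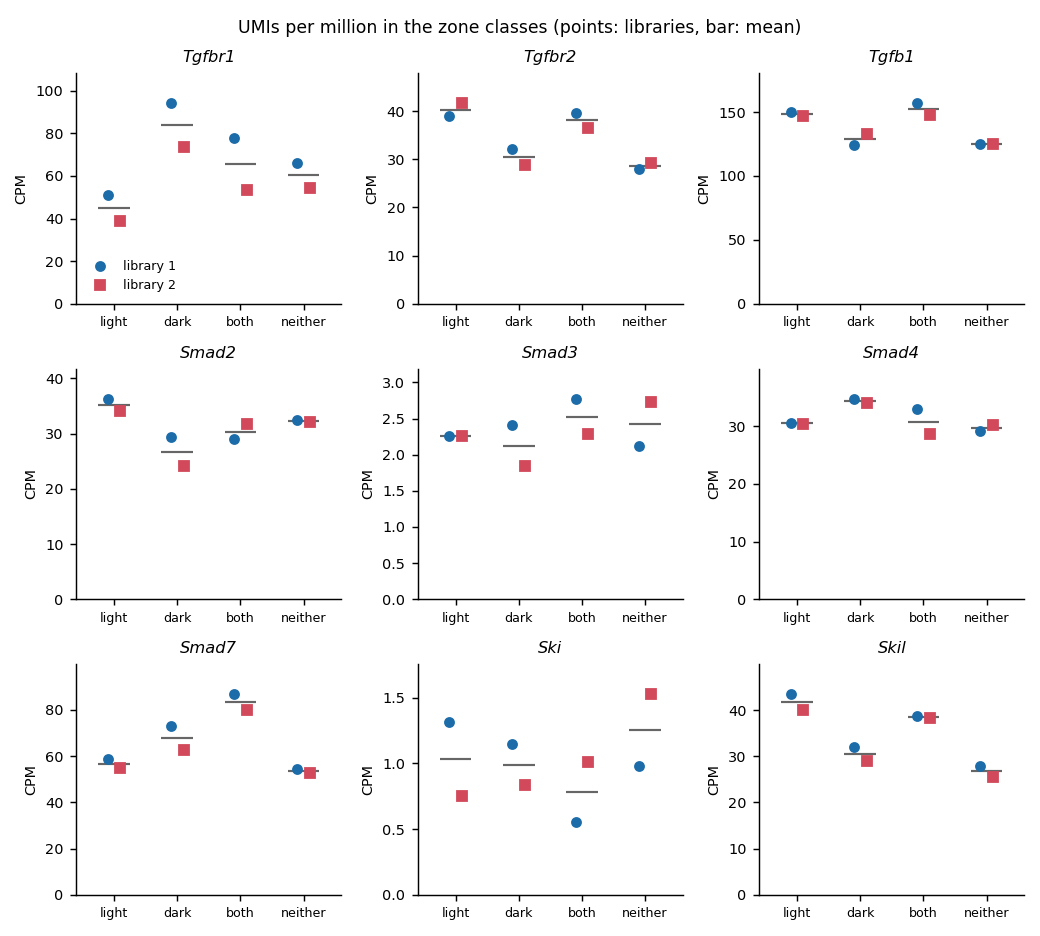
Level of each of the 9 genes in CPM (vertical axis, from 0) in cells of the light zone gate, dark zone gate, both gates and neither gate; points are libraries 1 and 2 and bars their mean. Tgfbr1 lies at 50.9 and 38.6 CPM in the light zone gate and at 94.1 and 73.7 CPM in the dark zone gate, while Tgfbr2 and Skil lie higher in the light zone gate.

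The transducers and inhibitors were split between the gates. Skil, the corepressor, had 43.4 and 40.01 CPM in light zone gate cells, against 32.1 and 29.1 CPM in dark zone gate cells (log2 fold change 0.44 ± 0.08, edgeR adjusted p = 5.56e-05). Smad7, the receptor inhibitor, had 58.6 and 54.9 CPM in light zone gate cells, against 72.9 and 62.5 CPM in dark zone gate cells (log2 fold change −0.26 ± 0.07, edgeR adjusted p = 0.00294). Its highest levels, 86.7 and 80.1 CPM, were in cells of both gates. Smad2 had 36.3 and 34.1 CPM in light zone gate cells, against 29.3 and 24.1 CPM in dark zone gate cells, and its log2 fold change was 0.38 ± 0.09 (edgeR adjusted p = 0.00122). With another random seed for the thinning that fold change was 0.09 (edgeR adjusted p = 0.55), and it was called in 7 of 17 alternatives. Smad4 had 30.6 and 30.4 CPM in light zone gate cells, against 34.7 and 34.1 CPM in dark zone gate cells, values that did not overlap but did not pass the test (log2 fold change −0.18 ± 0.09, edgeR adjusted p = 0.1246). It was called lower in 2 of 17 alternatives, at −0.52 on sums of thinned counts (edgeR adjusted p = 0.00475). Smad3, with 43 and 33 UMIs in light zone gate cells, against 21 and 11 UMIs in dark zone gate cells, stood at 0.05 ± 0.32 on the log2 scale, and Ski, with 25 and 11 UMIs against 10 and 5 UMIs, at 0.06 ± 0.49, and neither passed.

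Of the 9 genes, 4 were called higher and 2 lower, while edgeR called 29.1% of all 10956 genes tested, 16.7% higher and 12.4% lower. The median log2 fold change was 0.06 over the 9 genes and 0.01 over all genes tested. The Tgfbr1 call held in 17 of 17 alternatives, Skil in 15, Tgfbr2 in 13, Tgfb1 in 12 and Smad7 in 10. Without the replicate block of library, Tgfbr1 alone of the 9 was called. With DESeq2, Tgfbr2, Skil and Tgfbr1 were called. Tgfbr2 was not called on thinned sums (0.31 on the log2 scale), in G1-like cells alone (0.16) or in IgG cells alone (0.22), nor Skil in G1-like cells alone (0.58). Tgfb1 and Smad7 were not called at a mitochondrial limit of 10%, in G1-like cells alone or in IgG cells alone. The gates also differed in cell cycle and in other markers: G1-like cells made up 27.4% and 23.5% of light zone gate cells, against 11.9% and 12.1% of dark zone gate cells, and 10 naive and memory B cell markers, all detected, summed to 300 and 356 CPM in light zone gate cells, against 213 and 239 CPM in dark zone gate cells. The 9 macrophage markers summed to 19.9 and 14.0 CPM in light zone gate cells, with all 9 detected, against 7.57 and 8.35 CPM in dark zone gate cells, with 4 and 5 detected and C1qa, Adgre1 and Csf1r at 0. Over all cells used, C1qa had 116 and 20 UMIs, in 0.0855% and 0.128% of cells. Cd68, also on the list, was read in 5.94% and 6.95% of cells. The median share of mitochondrial UMIs was 12.8% in light zone gate cells of both libraries, against 14.0% and 14.2% in dark zone gate cells. The part of these measures in the fold changes was not tested.

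The zone difference of Tgfbr1 was present within each cell cycle state. In the G1-like state Tgfbr1 had 47.8 and 43.4 CPM in light zone gate cells, against 126 and 95.9 CPM in dark zone gate cells (88 and 61 cells). In the S-like state it had 57.8 and 37.9 CPM in light zone gate cells, against 115 and 89.9 CPM in dark zone gate cells. In the G2/M-like state it had 46.2 and 37.9 CPM in light zone gate cells, against 80.2 and 63.5 CPM in dark zone gate cells. In no state did the gates overlap. In 1 fit of gates split by cycling state, the log2 fold change was −1.26 ± 0.19 in G1-like cells (edgeR adjusted p = 1.66e-08) and −0.89 ± 0.07 in cycling cells (edgeR adjusted p = 8.88e-24).

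Among G1-like cells Smad4 was lower in those of the light zone gate, with 29.7 and 23.2 CPM, against 55.7 and 43.9 CPM in those of the dark zone gate (log2 fold change −0.87 ± 0.26, edgeR adjusted p = 0.0177). The dark zone gate values rest on 30 and 16 UMIs. In this state 2 of the 9 genes were called lower and 0 higher (2 higher at an unadjusted p below 0.05), against 9.03% of 10053 genes called, 5.26% higher and 3.77% lower. In cycling cells 4 were called higher and 2 lower, against 30.2% of genes called, 16.7% higher and 13.4% lower, and Skil had a log2 fold change of 0.31 ± 0.09 and Smad7 of −0.33 ± 0.07 there. The difference between the states, taken as the interaction term, was called by edgeR for 79 genes (0.786%, with 0.408% higher and 0.378% lower) and for 0 of the 9. At an unadjusted p below 0.05 it was found for 1, Smad4, at −0.75 ± 0.28 on the log2 scale (edgeR adjusted p = 0.263). For the interaction and for G1-like cells, the share of all genes at an unadjusted p below 0.05 was not computed. DESeq2 was not run on the interaction.

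**Figure D2:**
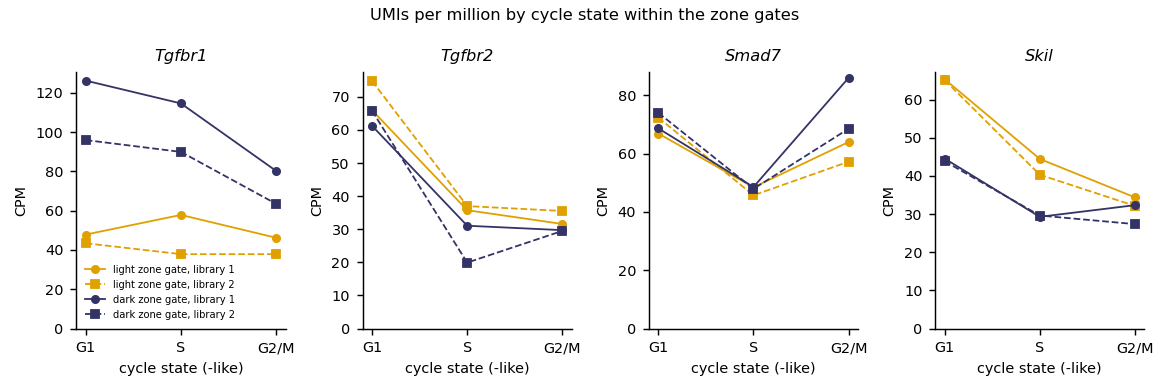
CPM (vertical axis) of Tgfbr1, Tgfbr2, Smad7 and Skil in G1-like, S-like and G2/M-like cells (horizontal axis) of the light zone gate and dark zone gate, 1 line per library. The light zone gate lines of Tgfbr1 (37.9 to 57.8 CPM) stay below the dark zone gate lines (63.5 to 126 CPM) in every state, whereas Tgfbr2 lies highest in G1-like cells of both gates.

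Tgfbr2, Skil, Tgfb1 and Ski were lower in S-like and in G2/M-like cells than in G1-like cells, and Smad7 was lower in S-like cells and Smad3 in G2/M-like cells. States were called from transcript scores and not from DNA content, giving 859 and 525 G1-like, 1567 and 1106 S-like and 2251 and 1504 G2/M-like cells. A state is a range of a score, and 24.6% and 24.7% of cells lay within 0.05 of a boundary. Tgfbr2 had 65.7 and 73.1 CPM in G1-like cells, 31.4 and 31.7 CPM in S-like cells and 28.6 and 29.7 CPM in G2/M-like cells. Both G1-like values lay above all others, and S-like and G2/M-like cells lay close together. The log2 fold change against G1-like cells was −1.07 ± 0.08 in S-like cells (edgeR adjusted p = 1.03e-16) and −1.20 ± 0.07 in G2/M-like cells (edgeR adjusted p = 8.38e-19). At equal depth a Tgfbr2 UMI was found in 18.7% and 26.1% of G1-like, 11.7% and 13.6% of S-like and 11.6% and 10.97% of G2/M-like cells.

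Tgfbr2 was highest in G1-like cells of both gates. Within the light zone gate Tgfbr2 had 66.0 and 74.8 CPM in G1-like, 35.7 and 37.0 CPM in S-like and 31.6 and 35.5 CPM in G2/M-like cells. Within the dark zone gate it had 61.2 and 65.8 CPM in G1-like, 31.1 and 19.9 CPM in S-like and 29.7 and 29.5 CPM in G2/M-like cells. S-like cells lay above G2/M-like cells in each, except in the dark zone gate of library 2.

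Tgfb1 had 170 and 168 CPM in G1-like, 137 and 134 CPM in S-like and 129 and 133 CPM in G2/M-like cells. The log2 fold change against G1-like cells was −0.27 ± 0.05 in S-like (edgeR adjusted p = 4.09e-06) and −0.33 ± 0.05 in G2/M-like cells (edgeR adjusted p = 5.31e-08). Skil had 59.7 and 56.6 CPM in G1-like, 34.7 and 32.3 CPM in S-like and 30.0 and 28.7 CPM in G2/M-like cells. Its log2 fold change against G1-like cells was −0.74 ± 0.08 in S-like (edgeR adjusted p = 2.18e-11) and −0.94 ± 0.08 in G2/M-like cells (edgeR adjusted p = 9.52e-15). For both genes the G1-like values of each library exceeded every value of the cycling states.

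Smad7 had 71.1 and 75.9 CPM in G1-like, 46.7 and 46.3 CPM in S-like and 69.8 and 62.5 CPM in G2/M-like cells. It was lower in S-like than in G1-like cells (log2 fold change −0.59 ± 0.07, edgeR adjusted p = 1.67e-09), and G2/M-like cells were not called against G1-like cells (−0.08 ± 0.07, edgeR adjusted p = 0.308). In 4 of 13 alternatives Smad7 was called lower in G2/M-like cells, at −0.18 with another seed, −0.31 and −0.16 at mitochondrial limits of 10% and 40% and −0.25 with classes on unthinned counts, on the log2 scale. The S-like values lay below all others, and no test of G2/M-like against S-like cells was run. Smad3 had 3.83 and 4.69 CPM in G1-like, 2.56 and 2.63 CPM in S-like and 1.79 and 1.82 CPM in G2/M-like cells, and only the last was called against G1-like cells (log2 fold change −1.16 ± 0.30, edgeR adjusted p = 0.0011). Ski had 1.74 and 3.31 CPM in G1-like, 1.06 and 0.856 CPM in S-like and 0.961 and 0.885 CPM in G2/M-like cells. It was called lower in S-like (−1.22 ± 0.45, edgeR adjusted p = 0.0182) and G2/M-like cells (−1.29 ± 0.43, edgeR adjusted p = 0.0103), but G1-like cells held 10 and 12 Ski UMIs, and library 1 alone gave −0.63 and −0.79. Ski was not called with DESeq2 (adjusted p = 0.0988 in S-like and 0.0736 in G2/M-like cells) or at a mitochondrial limit of 10% (edgeR adjusted p = 0.222 and 0.0789), and kept its call in 8 of 11 and 9 of 11 alternatives.

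Tgfbr1 did not follow Tgfbr2 through the cycle. It had 66.5 and 52.7 CPM in G1-like, 74.6 and 55.6 CPM in S-like and 61.1 and 48.4 CPM in G2/M-like cells, so the libraries differed by more than S-like and G1-like cells did within either of them. The S-like difference of 0.19 ± 0.07 on the log2 scale (edgeR adjusted p = 0.0189) was lost in 7 of 13 alternatives. Smad2 (29.4 to 38.7 CPM) and Smad4 (29.2 to 35.2 CPM) were called in neither comparison.

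**Figure D3:**
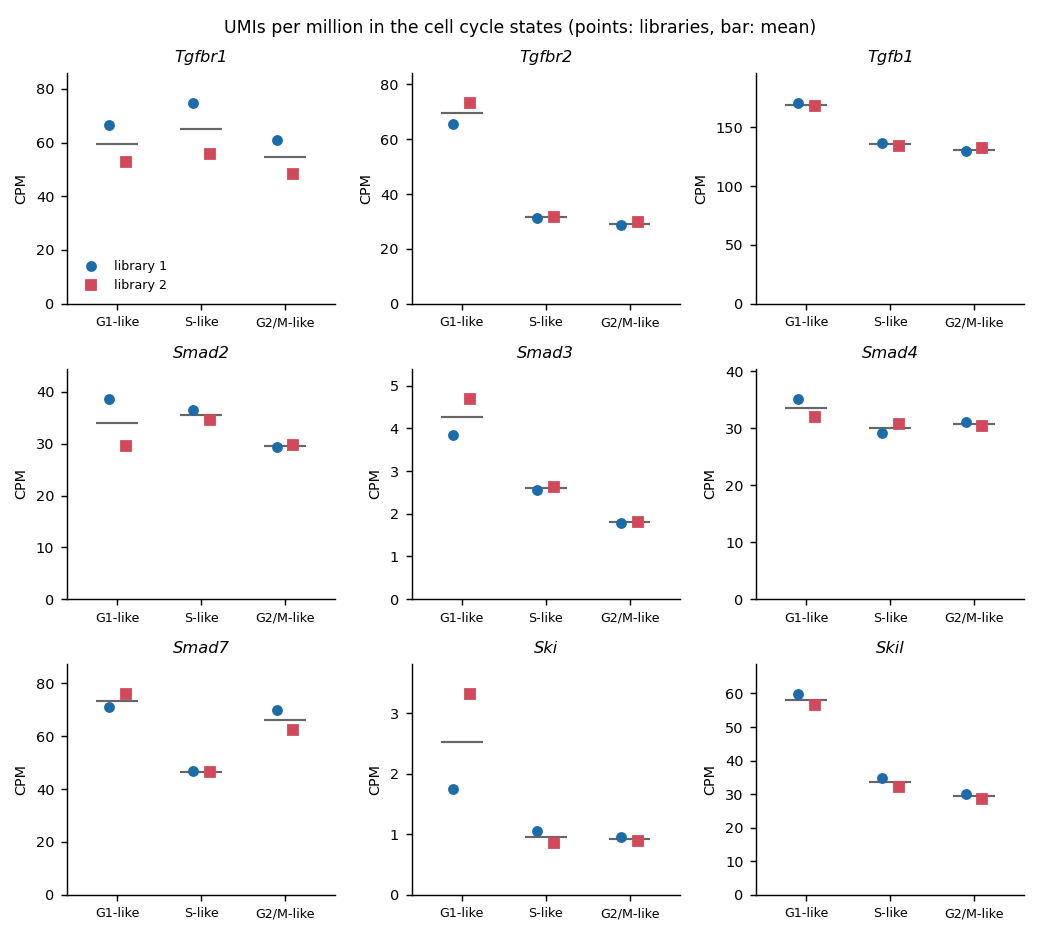
Level of each of the 9 genes in CPM (vertical axis, from 0) in G1-like, S-like and G2/M-like cells; points are libraries 1 and 2 and bars their mean. Tgfbr2 lies at 65.7 and 73.1 CPM in G1-like cells and at 28.6 to 31.7 CPM in the cycling states, and Smad7 is lowest in S-like cells at 46.7 and 46.3 CPM.

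Of the 9 genes, 1 was called higher and 5 lower in S-like against G1-like cells, where edgeR called 57.2% of all 11376 genes tested, 28.6% higher and 28.6% lower. In G2/M-like against G1-like cells 0 were called higher (0 at an unadjusted p below 0.05, and 0 by DESeq2) and 5 lower, where 53.6% of genes were called, 27.3% higher and 26.3% lower. The medians over the 9 genes were −0.59 and −0.33 on the log2 scale, against −0.03 and −0.01 over all genes tested. The calls of Tgfbr2, Tgfb1 and Skil held in 13 of 13 alternatives in both comparisons, as did Smad7 in S-like and Smad3 in G2/M-like cells. Depth, zone genes and other markers moved with the states. All 9 light zone check genes were called lower in S-like and in G2/M-like cells than in G1-like cells. Of the 7 dark zone check genes, 5 were called higher and 1 lower in S-like cells, and 6 higher and 1 lower in G2/M-like cells. Light zone gate cells made up 456 and 281 of the 859 and 525 G1-like cells. They made up 598 and 471 of the 2251 and 1504 G2/M-like cells. Median depths were 5372 and 5625 UMIs in G1-like, 9627 and 10268.5 UMIs in S-like and 10378 and 10200 UMIs in G2/M-like cells. The 10 naive and memory B cell markers, all detected, summed to 529 and 684 CPM in G1-like, 208 and 245 CPM in S-like and 221 and 265 CPM in G2/M-like cells. The 9 macrophage markers summed to 126 and 29.5 CPM in G1-like cells, with all 9 detected, to 10.2 and 8.82 CPM in S-like cells and to 8.20 and 9.64 CPM in G2/M-like cells, where C1qa and C1qc were at 0 in library 1. Part of these sums rests on few cells: in library 1 the 116 C1qa UMIs lay in 0.0855% of cells and the 189 Vcam1 UMIs in 0.192%. The 8 T cell markers summed to 2.44 and 12.1 CPM in G1-like cells, 1.64 and 2.04 CPM in S-like cells and 1.51 and 1.82 CPM in G2/M-like cells, with Cd8a and Il7r at 0 in G1-like cells of both libraries. The part of zone, depth and these markers in the levels was not tested. On sums of thinned counts the Tgfbr2 fold changes were −0.84 and −1.01 on the log2 scale in S-like and G2/M-like cells.

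Class-switched IgG cells had more Tgfbr1 and less Tgfbr2 than unswitched IgM cells, each by a small amount. IgG cells (1630 and 1065) had at least 5 thinned heavy chain constant region UMIs with at least 80% from Ighg genes, and IgM cells (1559 and 1158) at least 80% from Ighm and Ighd. A further 614 and 399 cells were mixed. Tgfbr1 had 70.6 and 52.6 CPM in IgG cells, against 56.7 and 44.9 CPM in IgM cells. The groups overlapped across libraries, but IgG cells were higher within each (log2 fold change 0.26 ± 0.06, edgeR adjusted p = 0.000726). Tgfbr2 had 30.6 and 28.8 CPM in IgG cells, against 37.6 and 39.7 CPM in IgM cells, with no overlap (log2 fold change −0.39 ± 0.07, edgeR adjusted p = 2.91e-05).

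Tgfb1 had 133 and 131 CPM in IgG cells, against 146 and 144 CPM in IgM cells (log2 fold change −0.16 ± 0.05, edgeR adjusted p = 0.0103). Ski gave 13 and 7 UMIs in IgG cells, against 24 and 27 UMIs in IgM cells (log2 fold change −1.27 ± 0.39, edgeR adjusted p = 0.0158). Both genes were lower in IgG cells of each library, without overlap. Smad2, Smad3, Smad4, Smad7 and Skil were not called. Smad3 had 1.85 and 2.13 CPM in IgG cells (34 and 28 UMIs), against 2.72 and 2.80 CPM in IgM cells (51 and 41 UMIs). These values did not overlap, but the Smad3 log2 fold change of −0.50 ± 0.26 did not pass (edgeR adjusted p = 0.193). The share of all genes whose class values do not overlap was not computed. Smad2 had 30.9 and 32.6 CPM in IgG cells, against 35.1 and 30.6 CPM in IgM cells, and Smad4 30.6 and 30.1 CPM in IgG cells, against 29.3 and 29.0 CPM in IgM cells. Among the inhibitors, Smad7 had 69.5 and 59.7 CPM in IgG cells, against 61.0 and 60.2 CPM in IgM cells, and Skil 36.6 and 34.5 CPM in IgG cells, against 35.6 and 32.9 CPM in IgM cells.

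**Figure D4:**
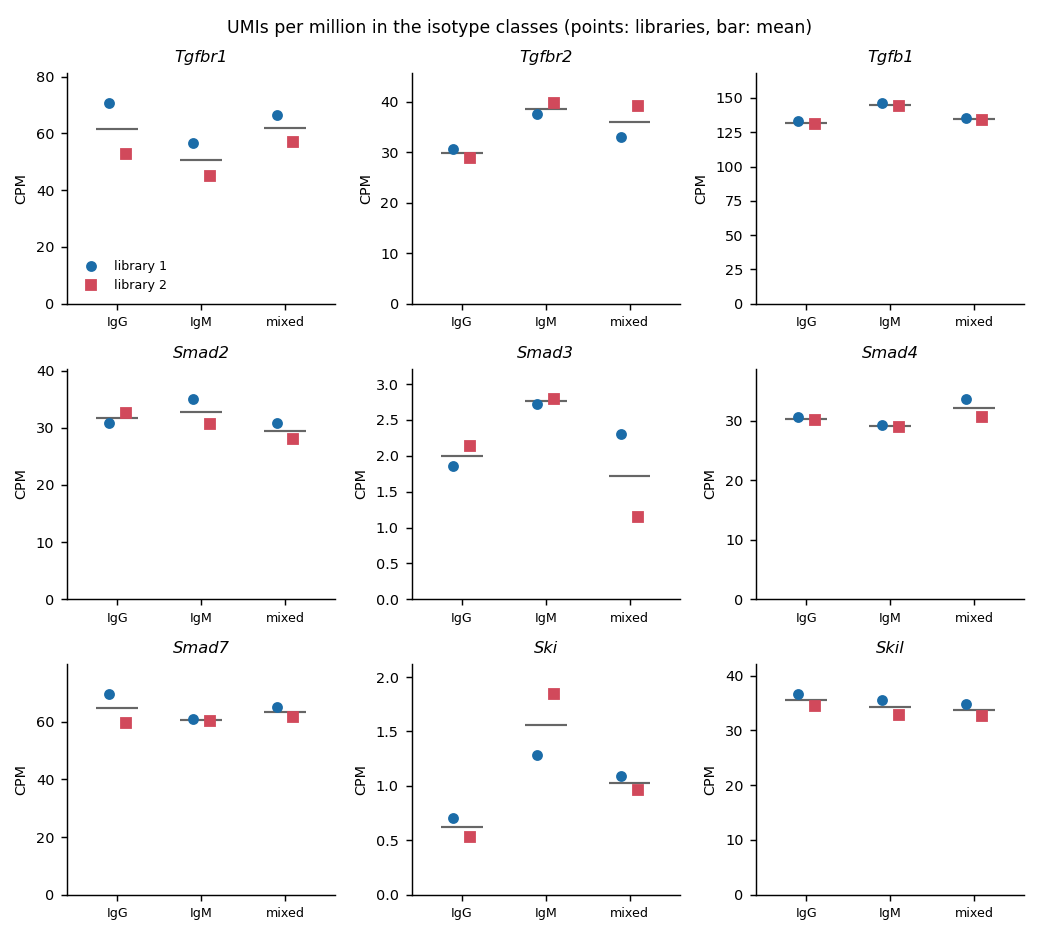
Level of each of the 9 genes in CPM (vertical axis, from 0) in IgG, IgM and mixed cells; points are libraries 1 and 2 and bars their mean. Tgfbr2 lies at 30.6 and 28.8 CPM in IgG cells and at 37.6 and 39.7 CPM in IgM cells, and Tgfbr1 is higher in IgG than in IgM cells within each library.

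Of the 9 genes, 1 was called higher and 3 lower in IgG cells, where edgeR called 16.2% of all 11063 genes tested, 7.09% higher and 9.12% lower. The call of Tgfbr2 held in 13 of 16 alternatives, Tgfbr1 in 11 and Tgfb1 in 9, and Ski in 8 of 12. On sums of thinned counts no call of these genes held. At equal depth a Tgfbr2 UMI was found in 12.6% and 12.8% of IgG cells, against 13.7% and 16.5% of IgM cells. For Tgfbr1 these shares were 22.3% and 17.3%, against 18.9% and 16.1%. Naive and memory B cell markers moved with the isotype: all 10 were detected and summed to 169 and 209 CPM in IgG cells, against 358 and 407 CPM in IgM cells, a list that holds Ighd, which the IgM call itself used. The median mitochondrial share was 14.1% in IgG cells of both libraries, against 12.5% and 12.2% in IgM cells, and of the light zone check list 6 of 9 genes were called lower in IgG cells; their part was not tested. In barcodes kept by a stricter marker rule, Tgfbr1 and Tgfb1 were not called (log2 fold changes 0.06 and −0.09) and Ski was too low to be tested. That rule left out barcodes with a UMI of a gene counted in the IgM call, so it can remove IgM cells more than IgG cells. Within the light zone gate alone the log2 fold changes were 0.39 for Tgfbr1 (edgeR adjusted p = 0.0197) and −0.46 for Tgfbr2 (edgeR adjusted p = 0.00523). Without the replicate block, and likewise with DESeq2, 0 of the 9 were called, and Tgfbr2 had an adjusted p of 0.201 in edgeR and 0.0987 in DESeq2.

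IgG2b cells were set against IgG1 cells because TGF-β is a switch factor for mouse IgG2b. The classes held 153 and 117 IgG2b cells and 1335 and 852 IgG1 cells. Tgfbr1 had 89.3 and 54.0 CPM in IgG2b cells, against 67.1 and 53.2 CPM in IgG1 cells, and Skil 49.1 and 33.9 CPM in IgG2b cells, against 34.9 and 34.4 CPM in IgG1 cells. In both genes library 1 alone gave most of the difference. Tgfbr2 had 30.1 and 35.2 CPM in IgG2b cells, against 28.9 and 26.3 CPM in IgG1 cells, and Smad7 had 77.0 and 68.4 CPM in IgG2b cells, against 67.2 and 58.0 CPM in IgG1 cells. Of the 9 genes 0 were called by edgeR, where 0.301% of 10295 genes were (0.243% higher and 0.0583% lower), and 0 by DESeq2. At an unadjusted p below 0.05 there was 1, Tgfbr1, at 0.27 ± 0.11 on the log2 scale (edgeR adjusted p = 0.433). The share of all genes at that unadjusted threshold was not computed. The standard errors were 0.09 to 0.17 for the genes other than Smad3 and Ski, and at this depth a difference of that size did not pass the adjustment.

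**Figure D5:**
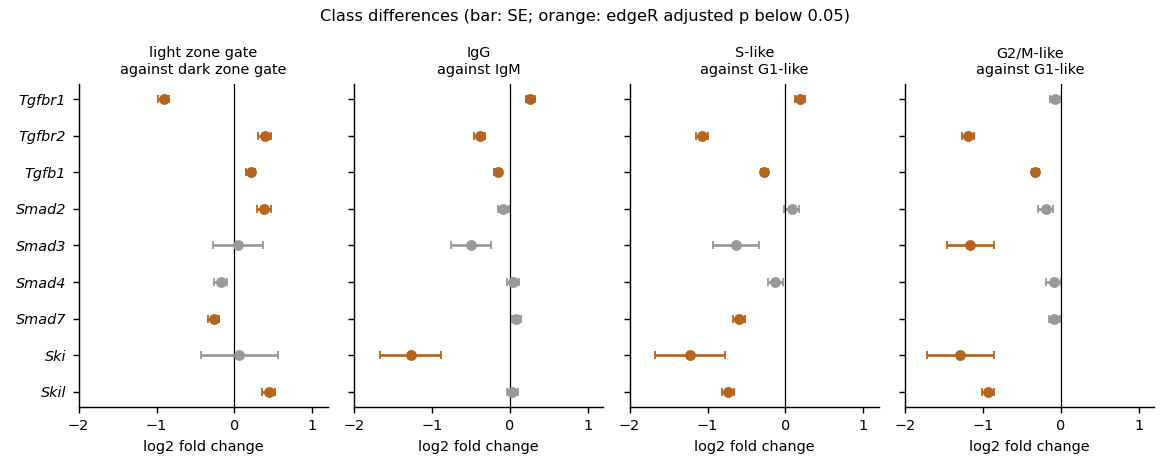
Log2 fold change (horizontal axis) of each of the 9 genes in 4 comparisons, 1 panel each; points are edgeR estimates, bars 1 SE, and orange marks an adjusted p below 0.05. Tgfbr1 and Tgfbr2 lie on opposite sides of 0 in the light zone gate against dark zone gate (−0.91 and 0.39) and in IgG against IgM cells (0.26 and −0.39).

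The other genes of the pathway were read from lists of 85 ligands and activators, receptors, SMADs, cofactors and response genes. In the light zone gate against the dark zone gate 11 of 51 tested (21.6%) were called higher and 7 (13.7%) lower, near the 16.7% and 12.4% of all genes, with a median log2 fold change of −0.04. Bhlhe40, a transcription repressor of the response list, had 12.1 and 14.2 CPM in light zone gate cells, against 3.10 and 2.17 CPM in dark zone gate cells (log2 fold change 2.25 ± 0.21). Lrrc32 and Nrros encode proteins that hold latent TGF-β at the cell surface, and both were called higher in light zone gate cells, Lrrc32 by 1.41 ± 0.24 and Nrros by 0.87 ± 0.15 on the log2 scale. Tgif2, a SMAD corepressor, was higher by 1.28 ± 0.30. Lower were Gdf15, a divergent member of the ligand family (−1.38 ± 0.36), and Ldlrad4, a membrane inhibitor of SMAD2 and SMAD3 activation (−1.07 ± 0.20). By list, 2 of 7 ligand and activation genes were called higher and 1 lower, 3 of 25 cofactors and regulators higher and 3 lower, and 5 of 15 response genes higher and 3 lower, each to be read against the same 16.7% and 12.4% of all genes.

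In IgG against IgM cells 8 of 51 (15.7%) were called higher and 7 (13.7%) lower, against 7.09% and 9.12% of all genes. Pml, which encodes a nuclear body protein, had 1.53 and 1.67 CPM in IgG cells, against 4.86 and 5.52 CPM in IgM cells (log2 fold change −1.71 ± 0.22). Nrros had 5.89 and 8.90 CPM in IgG cells, against 12.4 and 15.1 CPM in IgM cells (−0.93 ± 0.12), and Bhlhe40 was also lower (−0.70 ± 0.14). Gdf15 had 2.24 and 3.35 CPM in IgG cells, against 0.53 and 0.55 CPM in IgM cells (10 and 8 UMIs; 2.30 ± 0.35). Id2, an inhibitor of E protein transcription factors, and Cdkn1c, a cell cycle inhibitor, were higher by 0.40 ± 0.10 and 1.14 ± 0.39. In IgG2b against IgG1 cells edgeR called 0 of 47 (8 at an unadjusted p below 0.05). The share of all genes at that unadjusted threshold was not computed, so the 8 cannot be set against it.

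Across the cell cycle states 12 of 52 (23.1%) were called higher and 23 (44.2%) lower in S-like cells, where 28.6% of all genes were called in each direction. In G2/M-like cells 9 (17.3%) were called higher and 23 (44.2%) lower, against 27.3% and 26.3% of all genes. Both were set against G1-like cells. Among the 7 ligand and activation genes tested, 1 was called higher and 5 lower in S-like cells, and 1 higher and 6 lower in G2/M-like cells. Tgfb3, another TGF-β ligand, had 2.09 and 3.31 CPM in G1-like, 0.48 and 0.46 CPM in S-like and 0.61 and 0.65 CPM in G2/M-like cells. Gdf11, a ligand that signals through activin receptors, had 3.31 and 3.59 CPM in G1-like, 0.92 and 1.05 CPM in S-like and 0.74 and 0.93 CPM in G2/M-like cells. Lrrc32 had 15.3 and 13.5 CPM in G1-like, 4.29 and 5.53 CPM in S-like and 3.17 and 2.98 CPM in G2/M-like cells, and Bhlhe40 20.03 and 28.4 CPM in G1-like, 7.81 and 7.37 CPM in S-like and 4.52 and 4.98 CPM in G2/M-like cells. Acvrl1, a type I receptor of the family, was called lower and Cdkn1c and Gdf15 higher in both cycling states, and Klf11 higher in S-like cells, but each had 3 or fewer UMIs in a state of at least 1 library, so no fold is given for them.

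The genes whose levels ran most like each member were found over 24 sums of zone class, state and library, centred within library. These sums share libraries, depth and the classes themselves, so the Pearson r is a description. Tgfbr2 ran most like Pdlim2 and Cd79a (r = 0.96 for each), Skil like Man1a (0.96) and Zfp36l1 (0.95), and Tgfbr1 like Kcnn4 (0.91) and Txndc11 (0.87). Tgfb1 ran most like Bank1 (0.92) and Hvcn1 (0.91), Smad7 like St8sia4 and Arhgap15 (0.92 for each), Smad4 like Maml2 (0.86) and Hlcs (0.83), and Smad2 like Bmi1 and Orc4 (0.81 for each). Between members, r was 0.87 for Tgfb1 with Skil, 0.86 for Tgfbr2 with Skil and 0.80 for Tgfbr2 with Tgfb1, and −0.01 for Tgfbr1 with Tgfbr2.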

How the data were processed

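Germinal center B cell libraries were made with a 10x Genomics 3′ kit of version 3, per the labels' protocols. The deposited values are UMI counts per gene and cell barcode, not normalized, and their matrices name Cell Ranger 3.0.2, per the file headers. The submitters' processing notes give mm10 as the build. For the gene annotation and the cell calling the sources used here give no name. Gene positions are those of GENCODE M21 (mm10), matched by ID for 30766 of 30905 genes.

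Barcodes past the limits of 500 genes, 1000 UMIs and 20% mitochondrial UMIs numbered 5142 and 3526, and 465 and 391 of them were too shallow to thin. Zone, isotype and state classes were read on counts thinned to 3400 UMIs, the 10th percentile rounded down, with states from scanpy 1.11.5. Scrublet called 0 and 0 doublets, so it did not work here and no barcode was removed. An alternative left out the cells above a cut set for the highest 6% of the same Scrublet scores, 228 and 178 of the cells used. As Scrublet called 0 doublets, these scores may not mark doublets. The libraries shared 22 deposited barcode sequences, 6 of them among the cells used.

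All UMIs were summed per class and library and tested with edgeR 4.0.16 (quasi-likelihood, TMM, filterByExpr), with all classes of an axis in 1 fit and Benjamini-Hochberg adjustment over all genes tested, at 0.05. The library was the replicate block, since the classes compared come from the same libraries. The 9 genes passed the filter in each of the 5 main comparisons. Alternatives were DESeq2 1.42.0, no block, other size factors, filters, limits, seeds, gates and isotype calls, thinned sums, a stricter marker rule for barcodes (its genes are not reported here), subsets of cells and each library alone, which gives a value with no test. The test was also run on simulated counts with known changes, drawn with the dispersion estimated from these data. The outcome is not given here, so that run is no support for the calls. Pathway genes named are the 6 with the largest called fold changes in a comparison, and genes of like pattern are the 2 of highest r for members with at least 500 UMIs, on log2(CPM + 1). The members, lists and tests were chosen with earlier results of these data known.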

Additional observations from a re-analysis of the deposited data

How the results depend on the processing

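Of the values of single genes recomputed with a test under the alternatives, 563 kept the direction and the side of the threshold, 59 lost the call, 12 gained it, and 31 changed sign. The sign changes were all in genes not called with either setting. A single library gives a value with no test, and 9 of these 104 values had the other sign than both libraries together, again all in genes not called.

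Removing the replicate block of library, which the fits carry because both classes come from the same libraries, left 630 genes called in the light zone gate against the dark zone gate, 76 in IgG against IgM, 2 in IgG2b against IgG1, 3916 in G2/M-like against G1-like cells and 1 in the interaction, a fit chosen after seeing the data. Of the 9 genes, calls in light zone gate cells then numbered 0 higher and 1 lower, in IgG cells 0 and 0, and in S-like cells 0 higher. DESeq2 called 1665, 353 and 4 genes in the first 3 comparisons, with 2 of the 9 higher and 1 lower in light zone gate cells, 0 and 0 in IgG cells and 0 higher in S-like cells.

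For the light zone gate against the dark zone gate, 1608 genes were called on thinned sums, 2081 with gates of 2 UMIs, 576 in G1-like cells alone and 1123 in IgG cells alone. Under a stricter marker rule for barcodes 2256 genes were called. Of the 9 genes, 2 were higher and 1 lower at a mitochondrial limit of 10%, 2 higher on thinned sums, 1 lower under the stricter marker rule, 0 higher in G1-like cells alone, and 1 higher and 1 lower in IgG cells alone. The number of genes tested under each alternative is not given, so counts of the 9 have no share of all genes beside them.

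For IgG against IgM, 489 genes were called at a mitochondrial limit of 10%, 3908 at 40%, 961 on thinned sums, 990 under the stricter marker rule and 639 in the light zone gate alone. Of the 9, 0 were higher at the limit of 10%, 2 at 40%, 0 on thinned sums and 0 under the stricter marker rule. Lower were 1 at the limit of 10%, 0 on thinned sums, 1 under the stricter marker rule, 1 in the light zone gate alone and 1 with an isotype call of 10 UMIs at 95%.

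For IgG2b against IgG1, 54 genes were called with no filter on low counts, 130 with only the 2 classes fitted, 49 at a mitochondrial limit of 10%, 1011 at 40%, 87 with another seed, 11 on thinned sums, 12 under the stricter marker rule, 51 without the highest doublet scores and 253 with the stricter isotype call. For S-like against G1-like cells 4268 genes were called on thinned sums, and Tgfbr1, the gene of the 9 called higher, was not called (0) at mitochondrial limits of 10% and 40%, with another seed, with classes on unthinned counts or under the stricter marker rule.

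The sign changes in tested alternatives, as log2 fold changes, were these. In the light zone gate against the dark zone gate Smad3 was −0.24 at the limit of 10% and −0.32 with unthinned classes, Smad4 0.058 at 10%, and Ski −0.084 without the highest doublet scores and −0.21 in cycling cells. In IgG against IgM Smad4, Smad7 and Skil were −0.029, −0.049 and −0.19 at 10%, Smad7 and Skil −0.041 and −0.091 with unthinned classes, Smad4 and Skil −0.059 and −0.068 on thinned sums, and −0.042 and −0.18 with the stricter call. Skil was −0.040 under the stricter marker rule and −0.019 without the highest doublet scores, and Smad4 −0.17 in the light zone gate. In IgG2b against IgG1 Tgfb1 and Smad4 were 0.032 and 0.060 at 10%, Tgfbr1, Tgfb1, Smad4 and Smad7 −0.0070, 0.026, 0.0078 and −0.16 at 40%, Smad3 0.22 with another seed and 0.099 with unthinned classes, Smad4 0.093 on thinned sums, and Smad7 and Skil −0.33 and −0.029 with the stricter call. Smad4 was 0.0099 in S-like cells at 10%, and in G2/M-like cells Smad7 was 0.068 on thinned sums and Smad2 0.033 under the stricter marker rule. In 1 library alone the sign differed for Ski (−0.16, library 2) and Smad3 (−0.12, library 1) in the light zone gate, Smad2 (0.070) and Smad7 (−0.031) in IgG cells of library 2, Smad3 (0.29) and Skil (−0.023) in IgG2b cells of library 2, Smad2 (0.037, library 2) and Smad7 (0.038, library 1) in G2/M-like cells, and Smad2 (−0.057, library 2) in the interaction. The cause of these changes was not tested.

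With 2 libraries and Ski at 62 and 44 UMIs, Smad3 at 131 and 96, depth limits those genes most. Each library alone gave Tgfbr1 −0.91 and −0.94 in the light zone gate.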
